A study of Mus musculus with 8 samples.

Results

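Egr1, Egr2, Egr3, Ier2, Ier3, Ier5, Dusp1, Zfp36, Btg2 and Myc were measured in gastrocnemius muscle of mice with and without a muscle-specific knockout of the acetyltransferase Gcn5. They are early-response genes outside the AP-1 and NR4A families, and they were chosen by name. All 10 were found among the 19938 genes measured, each by the 1 transcript cluster of the array annotated to its symbol alone. The knockout group was Gcn5skm-/- (HSAcre Tg/0 on Gcn5 L2/L2), 4 mice in which Cre driven by the human skeletal actin promoter, active in muscle fibres, recombined the floxed Gcn5 gene. The wild-type group was Gcn5skm+/+ (HSAcre 0/0 on Gcn5 L2/L2), 4 mice with the same floxed gene and no Cre. Both groups were male, 6 months old, on chow diet and fasted for 5 h, and each animal gave 1 Affymetrix array of whole-muscle RNA. Cre was carried by the knockouts alone, so an effect of Cre and one of the deletion cannot be told apart, and cells other than muscle fibres kept the gene.

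Immediate-early genes are transcribed within minutes of a stimulus, without new protein synthesis, when MAP kinases activate factors that already sit on their promoters, above all serum response factor with its ternary complex partners and CREB. Some encode transcription factors (Egr1, Egr2, Egr3, Myc), and others encode brakes on the response: Dusp1 removes phosphate from MAP kinases, Zfp36 (tristetraprolin) recruits a deadenylase to short-lived mRNAs, and Btg2 binds the same deadenylase and slows proliferation. In skeletal muscle they respond to contraction, stretch and injury, and Egr3 is needed for muscle spindles while Egr2 drives myelination in Schwann cells.

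Binding motifs for these inputs were looked for around the start sites. RefSeq windows (GRCm38.p6) from 250 bases before to 50 after a gene's start were at hand for 6 of the 10 genes, namely Egr2, Ier3, Ier5, Dusp1, Zfp36 and Btg2. On both strands they were searched for the cyclic AMP response element TGACGTCA, the AP-1 site TGANTCA, the EGR site GCGNGGGCG, the MYC-MAX E-box CACGTG and the CArG box bound by serum response factor. The windows printed are that of Dusp1, the gene with the lowest difference, and 3 that hold a CArG box or a cyclic AMP element for comparison, with every match in capitals:
Dusp1 chr17:26508423-26508722 minus strand: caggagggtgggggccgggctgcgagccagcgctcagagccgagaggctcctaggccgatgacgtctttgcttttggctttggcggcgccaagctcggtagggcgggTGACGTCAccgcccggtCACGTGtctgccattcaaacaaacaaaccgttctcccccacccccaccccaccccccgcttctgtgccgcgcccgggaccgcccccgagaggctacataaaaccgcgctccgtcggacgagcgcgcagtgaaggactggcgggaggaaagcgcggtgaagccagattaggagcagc
Btg2 chr1:134079106-134079405 minus strand: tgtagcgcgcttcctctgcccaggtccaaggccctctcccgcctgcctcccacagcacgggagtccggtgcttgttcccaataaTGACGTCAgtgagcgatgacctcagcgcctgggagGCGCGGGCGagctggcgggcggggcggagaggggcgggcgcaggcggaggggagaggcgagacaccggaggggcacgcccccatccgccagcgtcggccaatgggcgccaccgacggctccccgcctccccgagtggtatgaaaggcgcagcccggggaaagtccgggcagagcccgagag
Zfp36 chr7:28379179-28379478 minus strand: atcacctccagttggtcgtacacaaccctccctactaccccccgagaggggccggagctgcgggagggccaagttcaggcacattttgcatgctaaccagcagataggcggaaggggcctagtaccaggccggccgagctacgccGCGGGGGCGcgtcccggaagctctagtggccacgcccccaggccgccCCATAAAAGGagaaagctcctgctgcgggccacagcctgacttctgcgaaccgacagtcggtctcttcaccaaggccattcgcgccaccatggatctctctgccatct
Egr2 chr10:67537619-67537918 plus strand: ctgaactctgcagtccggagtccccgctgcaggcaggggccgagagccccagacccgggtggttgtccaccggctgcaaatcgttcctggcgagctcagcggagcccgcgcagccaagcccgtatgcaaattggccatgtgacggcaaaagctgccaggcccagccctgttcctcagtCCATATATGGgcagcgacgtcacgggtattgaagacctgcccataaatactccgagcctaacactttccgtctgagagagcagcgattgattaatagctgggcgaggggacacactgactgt

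Dusp1 held TGACGTCA at positions -143 to -136 from its start and CACGTG at -126 to -121. Btg2 also held TGACGTCA, at -166 to -159, and an EGR site, GCGCGGGCG, at -131 to -123. Zfp36 held an EGR site, GCGGGGGCG, at -105 to -97 and the CArG box CCATAAAAGG at -58 to -49, and the printed Egr2 window, 1 of 5 for that gene, held the CArG box CCATATATGG at -72 to -63. The Ier3 and Ier5 windows held none of the 5 motifs, and the AP-1 site was in the windows of 0 of the 6 genes. Among all 32851 windows of this length in the table, 1.79% held TGACGTCA, 1.63% a CArG box, 5.55% an EGR site, 7.15% CACGTG and 7.81% an AP-1 site. A match describes these letters and is not evidence of binding; the array measured RNA only.

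Kat2a, which encodes Gcn5, measured 5.81, 5.84, 5.79 and 5.73 in knockouts 1 to 4 and 6.50, 6.46, 6.45 and 6.43 in wild types 1 to 4 (log2 expression). Every knockout lay below every wild type (difference -0.66, SE 0.08, limma adjusted p = 0.0319). Where its probes lie relative to the floxed exons was not analysed here. Array medians lay between 4.61 and 4.72, and the array of wild type 2 stood furthest from the rest, with a mean correlation to them of 0.977 where the other 7 had 0.981 to 0.987. The muscle fibre markers Acta1 and Ckm, chosen after their values were seen, lay between 12.6 and 12.7 in all 8 arrays, and the 11 neutrophil and lymphocyte markers measured all averaged under 5. Over all 19938 genes 3 passed a false discovery rate of 0.05, or 0.015%, with 1 higher (0.00502%) and 2 lower (0.01%) in knockouts, and 16 passed a rate of 0.10, or 0.0802%. Values below are log2 RMA expression and differences are knockout minus wild type.

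None of the 10 genes passed that rate in limma, and their adjusted p lay between 0.802 and 0.994. At an unadjusted limma p under 0.05 there were 2 of 10, Myc higher and Dusp1 lower, where 5.73% of all genes reached that level (2.34% higher, 3.39% lower). The other 8 genes had differences from -0.16 to -0.01 and unadjusted p of at least 0.211, and their 95% intervals lay within -0.43 and 0.27. By sign alone 9 of 10 were lower, against 54.7% of all genes, and the median difference of the 10 was -0.06, against -0.01 over all genes. The groups overlapped for all 10, while 3.62% of all genes had groups that did not. In this whole-muscle RNA, fewer cells of a type and less RNA per cell cannot be told apart.

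**Figure D1:**
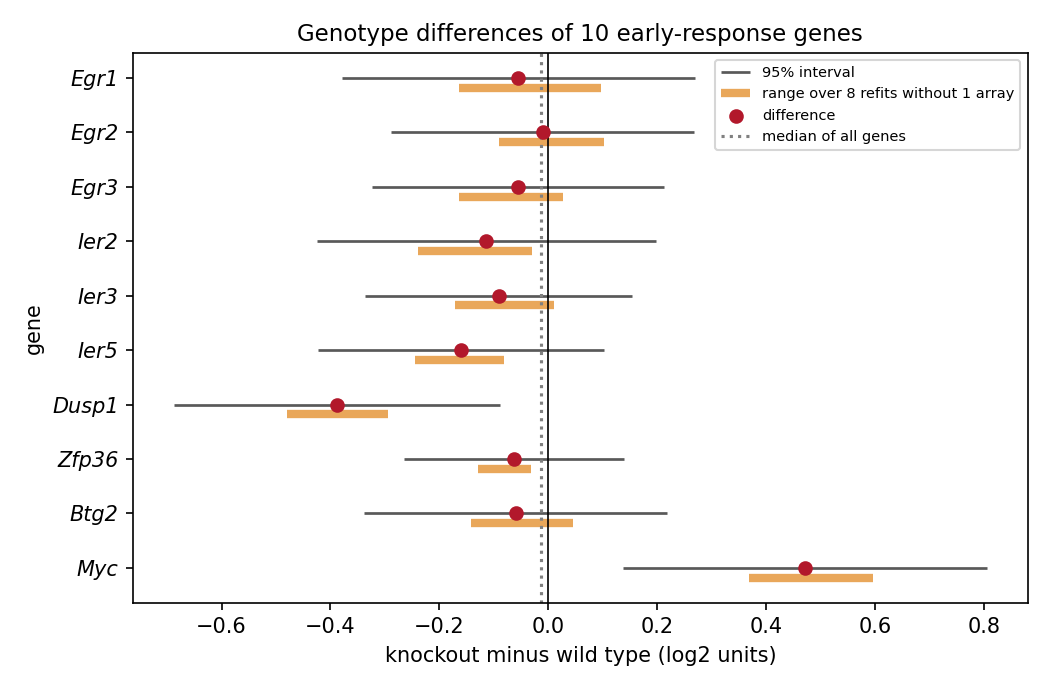
Genotype differences of the 10 genes in log2 units, knockout minus wild type. Points give the limma difference, thin lines its 95% interval, orange bars the range over 8 refits that each left out 1 array, and the dotted line the median of all genes (-0.01). Only the intervals of Dusp1 (-0.69 to -0.09) and Myc (0.14 to 0.81) leave out 0.

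Myc encodes the transcription factor that pairs with MAX on E-boxes and drives ribosome production and growth. It measured 5.57, 5.80, 5.90 and 5.89 in knockouts 1 to 4, against 5.54, 5.03, 5.69 and 5.01 in wild types 1 to 4. In all, 3 knockouts lay above every wild type, and knockout 1 fell among them, above wild type 1 and below wild type 3. The wild types themselves split, with 1 and 3 well above 2 and 4. The mean was 5.79 ± 0.15 in knockouts and 5.32 ± 0.35 in wild types (SD, 4 arrays each), a difference of 0.47 (SE 0.15, 95% interval 0.14 to 0.81) or 1.39-fold. Limma gave an unadjusted p of 0.00954 and an adjusted p of 0.802, and the exact two-sided permutation test gave p = 0.0571, where the smallest it can give with 4 against 4 is 0.0286. Leaving out 1 array at a time kept the difference between 0.37 (without wild type 4) and 0.60 (without wild type 3). Without wild type 2 and knockout 4 together, a pair chosen after seeing the data, it was 0.34 with an unadjusted limma p of 0.0708.

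Macrophage markers were compared over the same 8 arrays. The mean log2 level of the 15 macrophage markers was 5.65, 5.59, 5.81 and 6.22 in knockouts 1 to 4 and 5.42, 5.45, 5.53 and 5.42 in wild types 1 to 4, so the groups did not overlap. In knockouts 14 of the 15 were higher, 8 of them at an unadjusted limma p under 0.05, and 0 passed over all genes. Of all genes 54.7% were lower in knockouts, and 2.34% were higher at that unadjusted p. Tyrobp, a myeloid signalling adaptor, differed by 0.65, C1qb, a complement chain, by 0.42 and Itgam, an integrin of myeloid cells, by 0.24, with limma adjusted p of at least 0.611. Of the 24 gene lists compared, the levels of 3 did not overlap between genotypes: macrophage and erythroid markers, higher in knockouts, and the NR4A genes, lower. These lists were chosen with earlier results of the data known, and this count has no reference share. The 5 erythroid markers measured, of 8 listed, had levels of 5.25 to 5.41 in knockouts and 5.11 to 5.24 in wild types, with 4 higher and 1 lower. The part of these cell types in the Myc difference was not tested.

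No gene of the MYC network or its target list passed the test. Of 12 genes of the MYC family and MAX network, 6 were higher and 6 lower, 0 passed over all genes and 0 had an unadjusted limma p under 0.05, with a median difference of -0.01. Mxd1, which encodes a MAX partner that opposes MYC, differed by 0.24 (limma adjusted p = 0.861), and Mlxipl, the glucose-sensing factor ChREBP, by -0.22. Of 24 known MYC targets, 12 were higher and 12 lower, with a median difference of 0.000179 and 0 past the threshold over all genes. At an unadjusted limma p under 0.05 there was 1, Odc1, which was lower, where 3.39% of all genes were lower at that level. Odc1, the target that encodes the first enzyme of polyamine synthesis, had the opposite sign to Myc. It measured 7.66, 6.87, 7.26 and 6.77 in knockouts 1 to 4 and 8.64, 7.99, 7.51 and 8.01 in wild types 1 to 4, so that knockout 1 alone lay above a wild type. Its difference was -0.90 (SE 0.23, limma adjusted p = 0.505). Tfrc, the transferrin receptor, and Nolc1, a nucleolar protein, came next by p and differed by -0.18 and 0.13.

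Dusp1 encodes a nuclear phosphatase that switches off the p38, JNK and ERK kinases. It measured 8.39, 8.73, 8.60 and 8.94 in knockouts 1 to 4, against 8.96, 9.14, 8.79 and 9.34 in wild types 1 to 4. In all, 3 knockouts lay below every wild type, and knockout 4 lay above wild type 3 and just below wild type 1. The mean was 8.67 ± 0.23 in knockouts and 9.06 ± 0.24 in wild types (SD, 4 arrays each), a difference of -0.39 (SE 0.14, 95% interval -0.69 to -0.09), so that knockouts had 0.764 of the wild-type level. The unadjusted limma p was 0.0151, the adjusted p 0.859 and the exact two-sided permutation p 0.0571. Without knockout 1 the difference was -0.30 and without wild type 4 it was -0.29, and in both refits the unadjusted limma p rose above 0.05; without knockout 4 it was -0.48. Without wild type 2 and knockout 4 together it was -0.45.

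The related phosphatases and feedback inhibitors were measured with Dusp1. Of these 15 genes 5 were higher and 10 lower, 0 passed over all genes, and 1 had an unadjusted limma p under 0.05, with a median difference of -0.03. That gene was Dusp16, whose product dephosphorylates JNK and p38; it measured 6.57, 6.79, 6.46 and 6.55 in knockouts 1 to 4 and 6.75, 7.11, 6.78 and 6.96 in wild types 1 to 4, a difference of -0.31 (SE 0.11, limma adjusted p = 0.845). Dusp8 differed by -0.18 and Spry1, an inhibitor of receptor tyrosine kinase signalling, by -0.14. The kinases upstream had differences between -0.10 and 0.18, with 9 of 15 higher, 6 lower and 0 at an unadjusted limma p under 0.05. The kinases with the smallest p were Mapk10, a JNK, Map2k6, which activates p38, and Mapk12, a p38 of muscle, at 0.18, 0.14 and 0.09.

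None of the factors that start immediate-early transcription passed the test. Of 9 genes for serum response factor, its cofactors and CREB-type factors, 3 were higher and 6 lower, with a median of -0.06 and 0 at an unadjusted limma p under 0.05. Srf itself, named after its values were seen, measured 8.06 ± 0.11 in knockouts and 8.12 ± 0.09 in wild types (SD, 4 arrays each). Elk4, a ternary complex factor, differed by -0.19 (limma adjusted p = 0.869). Mrtfa, an actin-regulated coactivator of serum response factor, differed by 0.12.

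**Figure D2:**
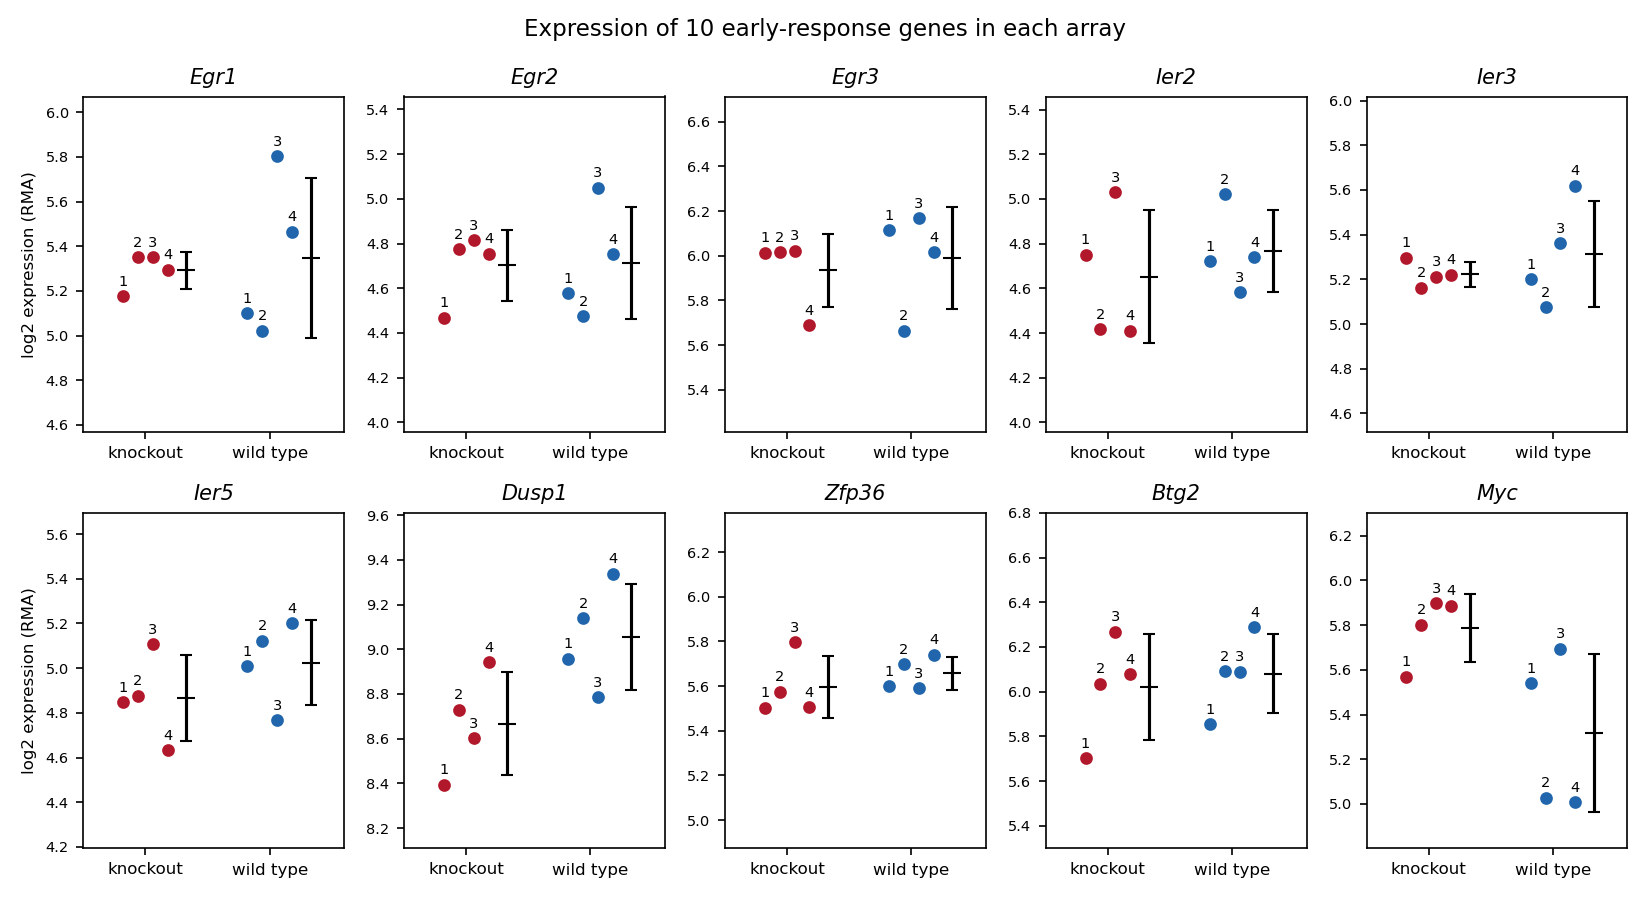
Log2 RMA expression of each of the 10 genes in every array, knockouts in red and wild types in blue, with the replicate number above each point and the mean and SD (n = 4) beside each group. Each panel spans 1.5 log2 units. The Myc panel shows 3 knockouts above every wild type and the Dusp1 panel 3 knockouts below every wild type. In the other 8 panels the groups overlap more widely. One of these, Zfp36, also has 3 knockouts below every wild type, but its knockout 3 lies above every one.

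Egr1, the zinc-finger factor of the immediate-early response, measured 5.18, 5.35, 5.35 and 5.30 in knockouts 1 to 4, against 5.10, 5.02, 5.80 and 5.46 in wild types 1 to 4. The knockouts lay inside the wild-type range, which wild type 2 and wild type 3 bounded. The difference was -0.05 (SE 0.15, 95% interval -0.38 to 0.27, limma adjusted p = 0.974), and it was 0.10 without wild type 3. Egr2 measured 4.47, 4.77, 4.81 and 4.75 in knockouts and 4.58, 4.47, 5.05 and 4.75 in wild types, again with wild type 3 highest and wild type 2 lowest of its group. Its difference was -0.01 (95% interval -0.29 to 0.27).

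Egr3, which spindle fibres need, measured 6.01, 6.02, 6.02 and 5.69 in knockouts 1 to 4, against 6.11, 5.66, 6.17 and 6.02 in wild types 1 to 4. Each group held 1 low array, knockout 4 and wild type 2, and the remaining 6 arrays lay between 6.01 and 6.17. The difference was -0.06 (95% interval -0.32 to 0.21), and 0.027 without knockout 4. Within the wild types Egr1 and Egr2 had the same order of arrays, 3, 4, 1 and 2 from high to low. The mean level of the 5 Schwann cell markers measured was 5.80, 5.55, 6.06 and 5.53 in knockouts 1 to 4 and 5.79, 5.50, 6.56 and 6.14 in wild types 1 to 4. That of 8 smooth muscle and pericyte markers was 6.91, 6.99, 6.90 and 6.87 in knockouts and 6.78, 6.76, 7.28 and 7.08 in wild types. Both lists, the erythroid markers and the AP-1 genes had the wild-type order of Egr1 and Egr2. Among knockouts none of these lists had the order of Egr1 or that of Egr2. The part of these cells in the Egr values was not tested. The EGR corepressor genes Nab1 and Nab2 differed by -0.04 and 0.07, with limma adjusted p of 0.980 and 0.967.

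The wild-type arrays varied more than the knockouts for some of these genes. Egr1 had an SD of 0.08 in knockouts and 0.36 in wild types, and Ier3 an SD of 0.06 in knockouts and 0.24 in wild types, so that the wild-type SD was 4.38 and 4.26 times that of knockouts. Over all genes 6.32% had a ratio at least as high as that of Ier3, and 67.6% had the higher SD in wild types, as did 6 of the 10. The median ratio was 1.21 for the 10 genes and 1.38 over all genes. The difference in spread was not tested.

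The 3 Ier genes encode small proteins with different roles. Ier3, a stress-induced regulator of cell survival, measured 5.30, 5.16, 5.21 and 5.22 in knockouts 1 to 4 and 5.20, 5.07, 5.36 and 5.62 in wild types 1 to 4. Its knockouts were tightly grouped and all below the wild-type mean, which wild type 4 raised: the difference was -0.09 (95% interval -0.34 to 0.15) and 0.011 without wild type 4. Ier2, a nuclear protein linked to cell motility, measured 4.75, 4.42, 5.03 and 4.41 in knockouts, against 4.72, 5.02, 4.58 and 4.74 in wild types. Knockout 3 was the highest of all 8 arrays and knockout 4 the lowest, and the difference was -0.11 (95% interval -0.43 to 0.20). It was -0.24 without knockout 3 and -0.029 without wild type 2. Ier5, whose product regulates heat shock factor, measured 4.85, 4.88, 5.11 and 4.63 in knockouts, against 5.01, 5.12, 4.77 and 5.20 in wild types. Its difference was -0.16 (95% interval -0.42 to 0.10, limma adjusted p = 0.889), the next lowest after Dusp1. It kept its sign in 18 of 18 alternatives, from -0.25 to -0.05, though some of these leave the difference unchanged by construction. Egr2, Ier2 and Ier5 were in the dimmer 50% of genes by mean.

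Neither mRNA-decay gene, Zfp36 or Btg2, passed the test. Zfp36 measured 5.50, 5.57, 5.80 and 5.50 in knockouts 1 to 4, against 5.60, 5.70, 5.59 and 5.74 in wild types 1 to 4. In all, 3 knockouts lay below every wild type and knockout 3 above every one, which left a difference of -0.06 (95% interval -0.26 to 0.14, limma adjusted p = 0.940). It was -0.13 without knockout 3. Of 15 genes for its relatives and the CCR4-NOT deadenylase it recruits, 6 were higher and 9 lower, with 0 at an unadjusted limma p under 0.05. Zfp36l3, Zfp36l1 and Zfp36l2 had the smallest p of these and differed by 0.16, -0.22 and -0.15.

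Btg2 measured 5.70, 6.04, 6.27 and 6.08 in knockouts 1 to 4, against 5.85, 6.09, 6.09 and 6.29 in wild types 1 to 4. Knockout 1 lay below every wild type and the other knockouts within their range, and the difference was -0.06 (95% interval -0.34 to 0.22), or 0.046 without knockout 1. Among 4 relatives measured, Tob1, an antiproliferative protein of the same family, had all its knockouts below all its wild types. It measured 9.94, 9.99, 9.87 and 10.01 in knockouts and 10.02, 10.32, 10.33 and 10.24 in wild types, a difference of -0.28 (SE 0.09, limma adjusted p = 0.815). Groups without overlap were found for 2.14% of all genes in the lower direction and 1.48% in the higher one. Btg4 differed by 0.15. Of 11 p53 target genes, a set to which Btg2 belongs, 5 were higher and 6 lower with 0 at an unadjusted limma p under 0.05, and Phlda3 and Pmaip1 differed by -0.17 and -0.19.

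**Figure D3:**
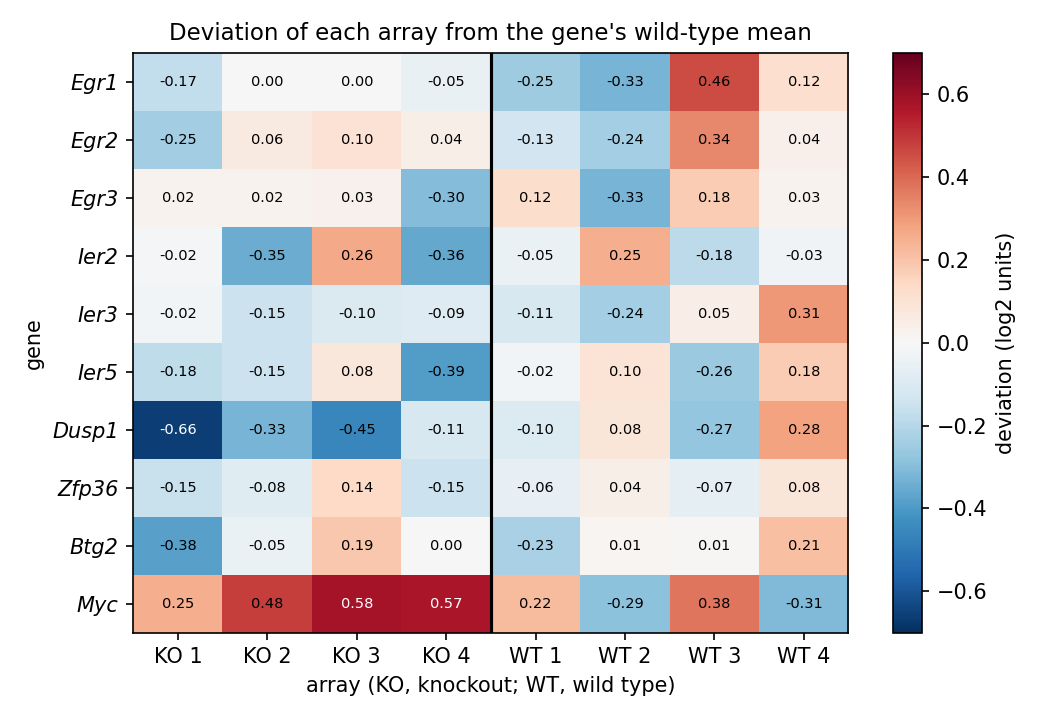
Deviation of each array from the gene's wild-type mean, in log2 units, with genes in rows and the 4 knockouts (KO) left of the 4 wild types (WT). Dusp1 and Ier3 are below 0 and Myc above 0 in all 4 knockouts; the other 7 genes have knockouts on both sides of 0, and knockout 3 has 8 of 10 values above 0.

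No array was above or below the wild-type mean for all 10 genes. Knockout 3 was the highest knockout for 8 genes, level with knockout 2 for Egr1, and had 8 of its 10 values above the wild-type means, while knockouts 1 and 4 had 8 of 10 below. Among wild types, 4 had 8 of 10 values above the mean and 1 had 8 of 10 below. The median deviation of the 10 genes from the wild-type mean was -0.16, -0.06, 0.09 and -0.10 in knockouts 1 to 4 and -0.08, -0.11, 0.03 and 0.10 in wild types 1 to 4, so the groups overlapped. Within the wild types Ier5, Dusp1 and Zfp36 shared the order 4, 2, 1 and 3 from high to low, so wild type 3 was lowest of its group for these 3 genes and highest for Egr1, Egr2 and Egr3.

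Genes whose deviations over the 8 arrays lay closest were taken for the 4 genes that varied by an SD of at least 0.2, from 9898 or 9899 genes with a mean of at least 5. Nearest to Myc were Zfp706, Tnfaip8l2 and Mir341, with mean absolute differences of 0.07, 0.08 and 0.09 against a median of 0.31 over all candidates. They were kept because these distances were the smallest, so lying below the median follows from the choice. A second transcript cluster of Zfp706 differed by -0.01 between genotypes where the one used differed by 0.42. Nearest to Dusp1 were Anxa11, Tmem150a and Rnf111, which differed by -0.36, -0.27 and -0.24 between genotypes. The distance takes in the genotype difference, so a sign shared with Dusp1 follows from the choice as well. Nearest to Egr1 were Col14a1, Fam102a and Serinc5, and nearest to Ier2 were Zfp213, Map3k6 and Asl. None of these 12 genes was another of the 10, but Egr2, Ier2 and Ier5 had means under 5 and could not be picked. The result thus does not show whether the 10 genes resemble each other.

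The AP-1 and NR4A genes are related immediate-early families. Of 9 AP-1 genes 6 were lower and 3 higher, with a median of -0.14 and 3 lower at an unadjusted limma p under 0.05, and 0 passed over all genes. Jun was at 7.75, 8.11, 7.71 and 7.85 in knockouts 1 to 4 and 8.50, 8.46, 8.65 and 8.52 in wild types 1 to 4. These groups did not overlap (limma adjusted p = 0.0568). Fos, also without overlap, differed by -0.38, and Atf3, with overlap, by -0.46. All 3 NR4A genes were lower at an unadjusted limma p under 0.05, with differences of -0.48 for Nr4a1, -0.39 for Nr4a2 and -0.71 for Nr4a3, and 0 passed over all genes. Of 30 other early-response genes 21 were lower and 9 higher, with a median of -0.04; 3 were lower and 1 higher at an unadjusted limma p under 0.05. The higher one was Irf1, an interferon-response factor, at 0.32 without overlap (limma adjusted p = 0.780). Klf2 and Klf4, endothelial and epithelial factors, differed by -0.21 and -0.35 with overlap. Of all genes, 3.39% were lower and 2.34% higher at that unadjusted p. Groups without overlap were found for 2.14% of all genes in the lower direction and 1.48% in the higher one. The difference between these families and the 10 genes was not tested.

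**Figure D4:**
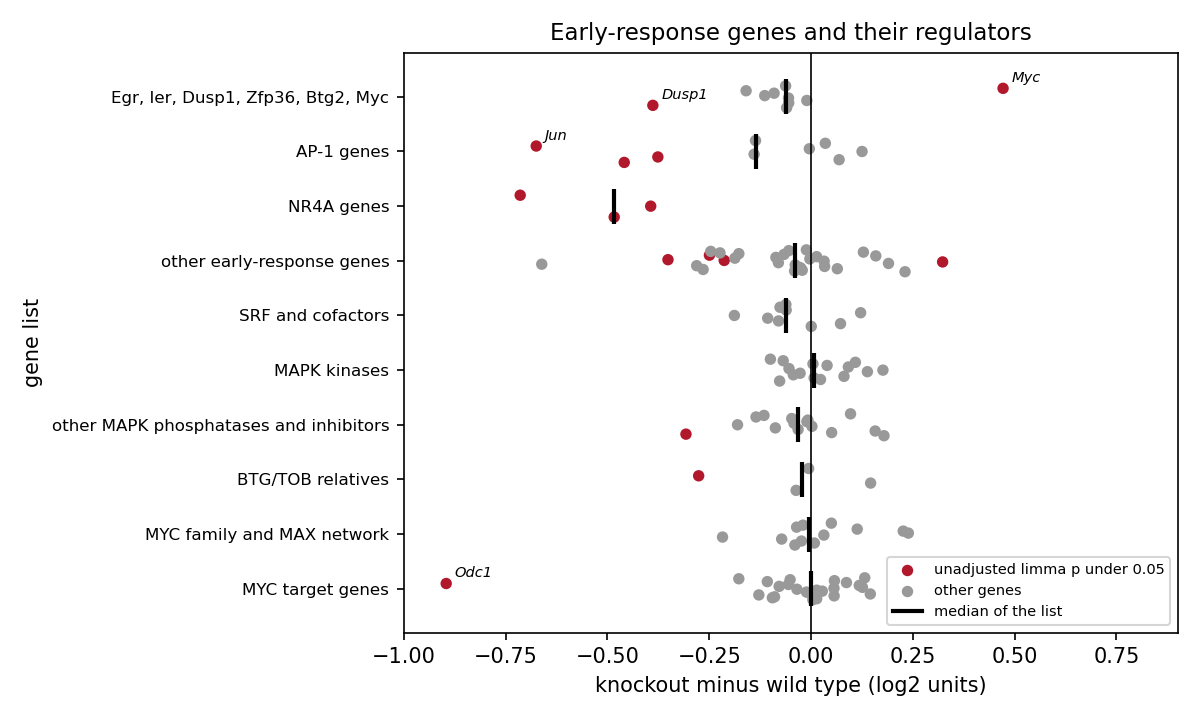
Knockout minus wild-type differences in log2 units for the 10 genes and for related lists, 1 point per gene, with red points for an unadjusted limma p under 0.05 and a black bar at each list's median. The 10 genes have a median of -0.06 with Myc and Dusp1 at the ends, the AP-1 genes -0.14 and the NR4A genes -0.48.

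Markers of other cell types had median differences of -0.04 for endothelial, -0.05 for smooth muscle and pericyte, 0.05 for fibro-adipogenic, 0.00184 for satellite cell, -0.03 for adipocyte, -0.24 for Schwann cell and 0.42 for slow-fibre genes. Of these lists' genes with the smallest p, Tek and Emcn (endothelium) differed by -0.16 and -0.24, Acta2 and Pdgfrb (smooth muscle and pericytes) by -0.28 and -0.24, Dcn and Col1a2 (matrix) by 0.13 and 0.10, and Fgfr4 and Myf5 (satellite cells) by -0.09 and -0.09. Lep and Plin1 (adipocytes) differed by 0.35 and -0.21, Ncmap and S100b (Schwann cells) by -0.57 and -0.31, Car2 and Bpgm (red cells) by 0.40 and 0.28, and Tnnc1 and Tnnt1 (slow fibres) by 0.80 and 0.54. Myh2 and Myh1, the fast myosins with the smallest p among fibre markers, differed by -0.49 and -0.25, and Ptprc and Ms4a1 (leukocytes) by 0.23 and -0.21. None of these genes passed over all genes. The slow-fibre level ran from 5.51 (knockout 4) to 9.06 (knockout 3) in knockouts and from 6.33 to 8.37 in wild types. Knockout 3, the highest knockout for most of the 10 genes, thus had the highest slow-fibre level. In knockouts 1 to 4 the slow-fibre level was 7.44, 8.62, 9.06 and 5.51, and the mean level of the 10 genes 5.57, 5.67, 5.81 and 5.64. In wild types 1 to 4 the slow-fibre level was 6.33, 8.37, 6.39 and 8.23, and the mean level of the 10 genes 5.67, 5.63, 5.79 and 5.82. Whether fibre composition bears on the early-response values was not tested.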

How the data were processed

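Per the labels' protocols, 100 ng of total RNA from each muscle was amplified and 5500 ng of cDNA was labelled. The deposited values are log2 expression; the submitters' processing notes name RMA and Expression Console. RMA corrects background, normalizes by quantiles and summarises probes, and it compresses differences of dim genes. Its settings, like the genome build, are not given in the sources used here. Arrays have no count depth, so their number limits precision.

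Of 35556 transcript clusters, 21789 had 1 gene symbol, 1621 several and 12146 none here; where a gene had several clusters (999 genes) the cluster of highest mean was kept, giving 19938 genes, unfiltered. Groups came from the sample titles. Knockout and wild type were compared with limma 3.58.1 (lmFit, eBayes; R 4.3.3) and p-values were adjusted by Benjamini-Hochberg across the whole table, after the steps were tested on simulated data. Exact permutation tests used all 70 assignments. The genes, lists and rule for named genes (all 10 genes, Kat2a, the 2 or 3 genes of each list with the smallest p, and the 3 nearest genes by mean absolute difference) were chosen with earlier results of these data known. Lists held 269 entries, 253 measured. Promoter sequences are from RefSeq. Alternatives were normalization, filters on dim genes, cluster rules, variance priors, array weights, a replicate block, leaving out each array and other thresholds. Figures used matplotlib 3.10.9.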

Additional observations from a re-analysis of the deposited data

Results flagged for a closer look

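Egr3 in knockout 4 measured 5.69, where the other knockouts lay between 6.01 and 6.02, so this array stood far from its group by the gap relative to the group's range. Without it the Egr3 difference was 0.027 in place of -0.06. The gap was 0.977 of the group's range. The limit used to pick out such arrays is passed by chance in about 1 group in 20, this gap lay well past that limit, and 22 groups (11 genes in each genotype) were examined.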

How the results depend on the processing

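Across 187 refits of the single-gene differences, 177 kept their direction and stayed on their side of the threshold, and 10 changed sign. Filters on dim genes, cluster rules, the variance prior and the replicate block left each difference at its main value by construction. Those refits could not change a sign, so the 177 are not all separate checks of direction. None of the 10 genes passed in limma in any of 20 alternatives, including a false discovery rate of 0.10, while 1 or 2 had an unadjusted p under 0.05. Without wild type 3 the differences were 0.10 for Egr1, 0.10 for Egr2 and 0.00415 for Egr3; without wild type 4 they were 0.00226 for Egr2, 0.011 for Ier3 and 0.00945 for Btg2; without knockout 1 they were 0.068 for Egr2 and 0.046 for Btg2; without knockout 4 it was 0.027 for Egr3; without wild type 2 and knockout 4 together it was 0.052 for Ier2. The cause was not tested. With 1 array left out at a time the lowest values were -0.16 for Egr1, -0.090 for Egr2, -0.16 for Egr3 and -0.17 for Ier3 (all without wild type 2) and -0.14 for Btg2 (without knockout 3). Leaving out 1 array gave 6 to 9 lower genes of 10, a median difference between -0.13 and -0.03, and 1 to 2 genes at an unadjusted limma p under 0.05, with 1 when knockout 1 or wild type 4 was left out (Myc alone) and 1 without wild type 2 and knockout 4 together (Dusp1 alone).

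Over all genes 3 were called. This count was 11 and 13 without the dimmest 25% and 50% of genes, 17 with an intensity trend and robust prior, 16 at a false discovery rate of 0.10, 0 with all deposited clusters tested, 1 without wild type 2 and knockout 4 together, and between 0 and 5 without 1 array (0 without any one knockout, wild type 3 or wild type 4, and 5 without wild type 1). With the replicate number as a block it was 0. Deviations of same-numbered arrays correlated between -0.04 and 0.12. With 4 pairs this cannot decide whether the numbers pair the animals. With the block the Dusp1 difference had an unadjusted limma p of 0.00237 and an adjusted p of 0.478, and none of the 10 genes passed. Of 4 knockouts, 3 correlated best with the wild type of their own number, and of 4 wild types 1 did with the knockout of its own number.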
